A study of Mus musculus with 8 samples.

Results

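The genes described here are Spn, which encodes the sialoglycoprotein CD43, and 5 further genes by which B-1 cells are recognised in the mouse, namely Cd5, Bhlhe41, Ctla4, Itgam and Plac8. They were chosen by name as a marker list and make up 6 of the 41249 genes in the count table, and all 6 were found there by symbol. RNA was sequenced from splenic B cells that had been purified by taking out CD43-positive cells, before any culture, so the protein product of Spn was itself the handle of the isolation. CD43 protein was not measured in the data used here, and only the RNA is described.

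Cells were either kept in culture for 48 hours in the presence of 5 µg/mL LPS (lipopolysaccharide, a cell wall molecule of bacteria that B cells sense through TLR4), called stimulated, or taken directly after purification, called resting. In each state there was 1 library of homozygous 3'RR deletion cells, 1 of homozygous hs3b-hs4 deletion cells, 1 of homozygous 3'PAL deletion cells and 1 of wild-type cells, 8 libraries in all. The 3'RR is a group of enhancers that lies past the last constant gene of the immunoglobulin heavy chain locus, hs3b and hs4 are enhancers within it, and the labels give the 3'PAL deletion by name only. All animals were of a mixed background given as 129/C58BL/6, and no age is given for them. Each library came from a pool of equal cell numbers from 4 animals, so a library averages over animals and the spread between animals cannot be seen. The animals were homozygous for the deletions, and no transgene or Cre driver is named.

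B-1 cells are a self-renewing B cell lineage that is set up early in life, makes natural IgM and populates the body cavities, with a smaller population in the spleen. In the mouse they are told from conventional (B-2) cells by surface CD43, and the B-1a subset carries CD5 as well. CD43 also appears on conventional B cells once they are activated and on plasma cells, and CD43 is abundant on T cells and myeloid cells. Removal of CD43-positive cells from spleen therefore takes away T cells, myeloid cells, plasma cells and B-1 cells together, and leaves mostly follicular and marginal zone B cells.

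The libraries held B cell RNA in both states. Ms4a1, which encodes CD20, stood at 763 to 955 CPM (library-scaled counts, with TMM factors) in stimulated libraries, against 705 to 889 CPM in resting libraries, and Cd79a, a chain of the B cell receptor complex, at 222 to 351 CPM in stimulated libraries, against 407 to 468 CPM in resting libraries. By the edgeR test described below, 35.7% of all genes were called higher and 34.1% lower in stimulated cells. Of 9 B cell identity genes 0 rose, 6 fell and 3, among them Ms4a1, were not called. The falls included Cd74 (log2 -1.56), Cd37 (-1.31), Ebf1 (-1.07) and Cd79a (-0.70), and the 9 genes summed to 3717 to 4540 CPM in stimulated libraries, against 7589 to 8725 CPM in resting libraries. Total counts ran from 17883683 to 28785192 per library, so that 3 counts correspond to 0.104 to 0.154 CPM. The wild-type resting library stood apart by 1.94% of its counts in a single gene model over ribosomal RNA sequence (AY036118), which took 0.00755 to 0.0842% of the other 7 libraries. RNA of other cells differed between the states. The 16 monocyte and macrophage markers summed to 10.0 to 41.4 CPM in stimulated libraries, against 311.9 to 1373 CPM in resting libraries, and the 9 erythroid markers in the table to 10.7 to 242.2 CPM against 3068 to 21359 CPM. The 19 T cell markers summed to 40.2 to 89.3 CPM in stimulated libraries, against 131.5 to 162.9 CPM in resting libraries. Most of this was Cd2 and Lck (36.2 to 78.7 CPM against 106.7 to 123.9 CPM), and the other 17 summed to 3.95 to 10.6 CPM against 23.9 to 54.3 CPM. The defining T cell gene Cd3e had no count in any stimulated library and 0 to 4 counts in the resting ones. The 11 neutrophil markers summed to 0.036 to 0.321 CPM in stimulated libraries, against 2.85 to 10.3 CPM in resting libraries. Among them Ly6g had no count in any of the 8 libraries, whereas Csf3r had 0 to 4 counts against 40 to 159.

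The sequence upstream of Spn is shown because Spn had the largest rise of the 6 genes, and that upstream of Bhlhe41 because its protein, a basic helix-loop-helix repressor, binds the E-box CACGTG. Both were taken from RefSeq on the GRCm38.p6 build, in gene orientation and ending at the base before the gene start of the count table. In the Spn stretch (chr7:127137824-127138073, minus strand) the capitals mark GGGTGG on either strand, a box bound by Sp1 in the human CD43 gene. In the Bhlhe41 stretch (chr6:145865559-145865670, minus strand) the capitals mark CACGTG.
Spn: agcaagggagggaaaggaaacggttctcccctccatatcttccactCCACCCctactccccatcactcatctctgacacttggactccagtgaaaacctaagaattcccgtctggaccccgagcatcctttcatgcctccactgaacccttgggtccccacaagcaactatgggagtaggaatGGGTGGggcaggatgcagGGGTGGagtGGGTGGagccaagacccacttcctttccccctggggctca
Bhlhe41: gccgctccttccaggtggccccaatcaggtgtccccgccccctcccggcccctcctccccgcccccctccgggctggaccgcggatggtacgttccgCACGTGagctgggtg
The Spn stretch held 4 GGGTGG boxes, at 204, 67, 49 and 40 bases before the start, and 28.08% of 32851 RefSeq promoter windows of 250 bases held at least 1 on either strand. Of the other genes Plac8 had 2, in 1 of its 2 windows, and the rest 0. The E-box of Bhlhe41 lay 15 bases before the deposited gene start and 153 bases before the RefSeq start, and 6.021% of windows held this E-box. None of the windows of the other 5 genes held CACGTG, and none of the 6 genes' windows held the octamer ATGCAAAT, a motif of B cell promoters found in 1.601% of windows. A match of letters is not shown to be a bound site.

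By TPM, a level scaled to transcript length, which allows genes to be compared, the order of the 6 genes differed between the states. In stimulated cells Plac8 averaged 196.4 ± 79.6 TPM, Spn 24.1 ± 10.8, Ctla4 16.1 ± 11.2, Bhlhe41 6.42 ± 2.51, Itgam 2.84 ± 1.11 and Cd5 0.186 ± 0.067 TPM (SD, n = 4 genotypes). In resting cells Plac8 averaged 452.6 ± 141.0 TPM, Bhlhe41 9.25 ± 3.23, Itgam 4.65 ± 2.15, Ctla4 4.08 ± 2.39, Spn 3.26 ± 1.81 and Cd5 1.17 ± 0.66 TPM. Spn thus came next after Plac8 in stimulated cells, and in resting cells it was above Cd5 alone. Plac8 stood apart at the top and Cd5 at the bottom in every library. In stimulated cells the range of Ctla4 overlapped those of Spn and Bhlhe41. The ranges of Itgam, Ctla4 and Spn overlapped in resting cells, where Bhlhe41 (6.86 to 13.8 TPM) also overlapped Itgam (2.41 to 7.03 TPM). Plac8 lay at the 94.99 to 98.2 percentile of detected genes in stimulated libraries and the 99.0 to 99.2 percentile in resting libraries, and Cd5 at the 15.8 to 24.3 percentile against the 30.0 to 41.1 percentile. TPM values are not TMM-scaled, and the wild-type resting library was low on this scale, with Plac8 at 241.9 TPM against 505.2 to 533.5 TPM in the other resting libraries.

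**Figure D1:**
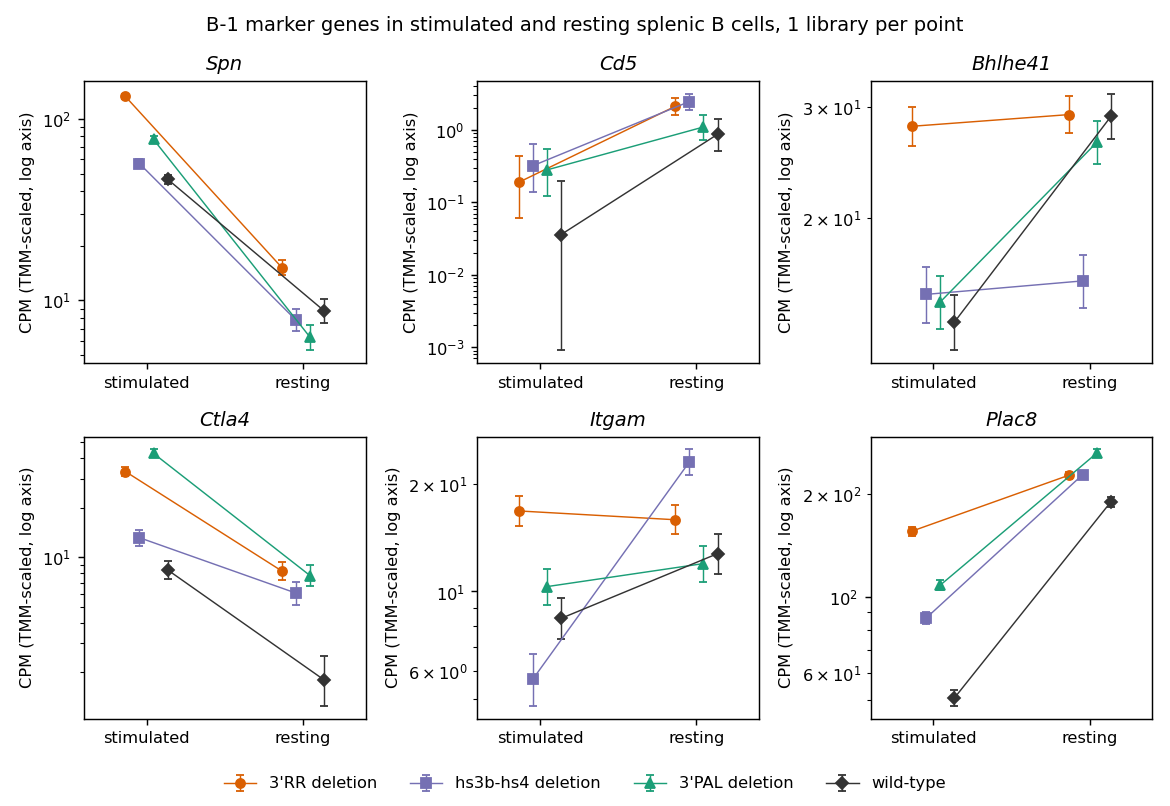
TMM-scaled CPM on a log axis (each panel has its own range) for the 6 genes in stimulated (left) and resting (right) libraries. Each point is 1 library with its exact 95% Poisson interval, and a line joins the states of a genotype; Spn and Ctla4 lie higher in all 4 stimulated libraries, Cd5 and Plac8 lower.

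The first comparison asked how the 6 genes differed between LPS-stimulated and resting cells. Resting cells were not cultured, and no library came from cells cultured without LPS. LPS and time in culture therefore differed together between the states, and their separate parts in any rise or fall were not tested. Spn and Ctla4 rose, Cd5, Bhlhe41 and Plac8 fell, and Itgam did not pass the threshold. The test was edgeR's quasi-likelihood test over all 8 libraries with genotype and state as terms, Benjamini-Hochberg adjusted over 14744 genes. Of all genes tested 35.7% were called higher and 34.1% lower in stimulated cells, 69.7% in either direction (72.2% at an unadjusted p under 0.05), so the count of 5 called of 6 is near this background. All 6 genes passed the filter on low counts, Cd5 through its resting libraries. In a bulk library, fewer cells of a type and less RNA per cell cannot be told apart.

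Spn, on chromosome 7 at 127132232 to 127137823 (minus strand, 4 exon blocks of 4607 bases in total), had the largest rise. In stimulated cells the level was 132.9 CPM with the 3'RR deletion, 56.7 with the hs3b-hs4 deletion, 77.0 with the 3'PAL deletion and 46.5 in wild-type cells. Resting cells of the same genotypes had 15.2, 7.79, 6.27 and 8.76 CPM. The lowest stimulated library, wild-type, lay above the highest resting one, 3'RR deletion, so the groups did not overlap, as for 31.8% of all genes in this direction. The mean was 78.3 ± 38.6 CPM in stimulated cells and 9.495 ± 3.92 CPM in resting cells (SD, n = 4 each), a log2 fold change of 3.01 ± 0.19 (SE, adjusted p = 1.51e-05 by edgeR). Within a genotype the stimulated level was 8.77-fold the resting one for the 3'RR deletion, 7.29-fold for hs3b-hs4, 12.3-fold for 3'PAL and 5.31-fold for wild-type. The main protein-coding transcript, ENSMUST00000049931, held 93.8 to 95.3% of the TPM of Spn in stimulated cells, against 82.7 to 90.5% in resting cells. The rest was assigned to ENSMUST00000143713, which the vM21 annotation marks as a target of nonsense-mediated decay.

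Ctla4, on chromosome 1 at 60887000 to 60915832 (plus strand), encodes an inhibitory receptor that binds CD80 and CD86 and is best known from T cells, and has been described on mouse B-1a cells. In stimulated cells the level was 33.2 CPM with the 3'RR deletion, 13.2 with the hs3b-hs4 deletion, 42.8 with the 3'PAL deletion and 8.38 in wild-type cells. Resting cells of these genotypes had 8.24, 6.05, 7.73 and 1.79 CPM, the last from 35 counts. The stimulated libraries lay above all resting ones, as for 31.8% of all genes in this direction. However, wild-type stimulated cells (8.38 CPM) were next to 3'RR deletion resting cells (8.24 CPM), a gap smaller than the counting error. The log2 fold change was 1.95 ± 0.22 (SE, adjusted p = 0.00017 by edgeR), with means of 24.4 ± 16.3 CPM in stimulated and 5.96 ± 2.93 CPM in resting cells (SD, n = 4 each). The full-length transcript held 82.1 to 97.3% of Ctla4 TPM in stimulated cells and 93.1 to 100% in resting cells. ENSMUST00000097720, which lacks the third exon of the full-length transcript, as the known soluble form without the membrane exon does, held 0 to 17.9% in stimulated cells and 0 to 6.87% in resting cells. Its estimated counts in stimulated cells were 18.9 with the 3'RR deletion, 0 with hs3b-hs4, 31.0 with 3'PAL and 11.2 in wild-type, too few to compare shares. In the same comparison 35.7% of all genes were called higher and 34.1% lower. Of 12 T cell markers tested 0 rose, 6 fell and 6 were not called. Among those not called was Cd28 (log2 0.83, adjusted p = 0.073 by edgeR). Cd3d had 2 to 3 counts per stimulated library against 3 to 8 per resting library. Foxp3, which marks regulatory T cells, had 0 counts in every stimulated library and 0 to 4 in resting ones. The part of T cells in the Ctla4 value was not tested.

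Cd5, on chromosome 19 at 10718143 to 10738974 (minus strand, 11 exon blocks), encodes a scavenger receptor family protein that dampens antigen receptor signalling and defines the B-1a subset. It was rare in every library. It had 5, 8, 8 and 1 counts in stimulated 3'RR deletion, hs3b-hs4 deletion, 3'PAL deletion and wild-type cells, against 61, 64, 27 and 17 counts in resting cells of these genotypes. On the CPM scale these are 0.189, 0.321, 0.281 and 0.0359 CPM against 2.12, 2.47, 1.10 and 0.871 CPM. All stimulated libraries lay below all resting ones, as for 30.3% of all genes in this direction. The log2 fold change was -2.97 ± 0.39 (SE, adjusted p = 0.00037 by edgeR), and it rests on at most 8 counts per stimulated library. Of the listed T cell markers, Cd4 also had few counts in stimulated libraries (0 to 5, against 245 to 1032 in resting ones). The same held for Cd8a (0 to 1, against 64 to 379). The pattern was not particular to the T cell list. Csf1r of the macrophage list had 0 to 14 counts in stimulated libraries, against 1186 to 7221 in resting ones. Clec9a of the dendritic cell list had 0, against 52 to 247. Cd3d, Cd3e and Thy1 were rare in resting libraries as well (3 to 8, 0 to 4 and 3 to 8 counts). Cd2 was not rare in either state (703 to 1587 counts in stimulated and 1815 to 2790 in resting libraries), unlike Cd3e. The part that other cells have in the Cd5 value was not tested.

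Plac8, on chromosome 5 at 100553725 to 100572245 (minus strand), encodes a small cysteine-rich protein that is high in B-1 and marginal zone B cells and in myeloid cells. In stimulated cells the level was 155.4 CPM with the 3'RR deletion, 86.6 with the hs3b-hs4 deletion, 108.1 with the 3'PAL deletion and 50.6 in wild-type cells. Resting cells of these genotypes had 226.1, 227.3, 262.6 and 189.3 CPM. The groups did not overlap, as for 30.3% of all genes in this direction. The spread between genotypes was wider in stimulated cells, with a highest library 3.07 times the lowest, against 1.39 times in resting cells. The log2 fold change was -1.28 ± 0.20 (SE, adjusted p = 0.000893 by edgeR), with means of 100.2 ± 43.8 and 226.3 ± 29.9 CPM (SD, n = 4 each) in stimulated and resting cells. Within a genotype the stimulated level was 0.687 of the resting one for the 3'RR deletion, 0.381 for hs3b-hs4, 0.412 for 3'PAL and 0.267 for wild-type.

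Bhlhe41, on chromosome 6 at 145858243 to 145865558 (minus strand), encodes a repressor that also acts in the circadian clock and is needed for B-1a cells in the mouse. In stimulated cells the level was 28.0 CPM with the 3'RR deletion, 15.1 with the hs3b-hs4 deletion, 14.7 with the 3'PAL deletion and 13.7 in wild-type cells. Resting cells of these genotypes had 29.2, 15.9, 26.4 and 28.997 CPM. The groups overlapped, since stimulated 3'RR deletion cells lay above 2 of the 4 resting libraries, and hs3b-hs4 deletion cells were the lowest of the resting ones. The log2 fold change was -0.51 ± 0.19 (SE, adjusted p = 0.0438 by edgeR), close to the threshold. The stimulated level was 0.558 times the resting one in 3'PAL deletion cells and 0.471 times in wild-type cells. In 3'RR deletion cells it was 0.958 times (95% interval 0.867 to 1.06) and in hs3b-hs4 deletion cells 0.952 times (0.826 to 1.10), within counting error of no difference. The call was lost in 8 of 17 alternatives, among them without either wild-type library (adjusted p = 0.15 and 0.122 by edgeR) or either 3'PAL deletion library (0.12 and 0.134). An antisense gene overlaps Bhlhe41 in the vM21 annotation, and without a stated strand setting the reads of the 2 genes cannot be told apart.

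Itgam, on chromosome 7 at 128062640 to 128128160 (plus strand), encodes the integrin chain CD11b, which marks B-1 cells of the body cavities and is abundant on monocytes, macrophages and neutrophils. In stimulated cells the level was 16.8 CPM with the 3'RR deletion, 5.69 with the hs3b-hs4 deletion, 10.3 with the 3'PAL deletion and 8.41 in wild-type cells. Resting cells of these genotypes had 15.9, 23.0, 12.0 and 12.8 CPM. The groups overlapped, and the log2 fold change of -0.66 ± 0.32 (SE) did not pass the threshold (adjusted p = 0.1 by edgeR). The ratio of stimulated to resting was 0.247 (95% interval 0.205 to 0.298) in hs3b-hs4 deletion cells and 1.06 (0.927 to 1.21) in 3'RR deletion cells. Markers of macrophages differed far more between the states than Itgam did. Of 16 such markers 15 fell, where 34.1% of all genes were called lower. These 15 summed to 8.41 to 17.0 CPM in stimulated libraries, against 308.7 to 1367 CPM in resting ones. The exception, Ly6c2, was not called and stood at 1.62 to 24.4 CPM in stimulated libraries, against 2.51 to 5.84 CPM in resting ones. Csf1r, the receptor for the macrophage growth factor, had 0 to 14 counts in stimulated libraries against 1186 to 7221 in resting ones. The resting library with the highest marker sum was 3'RR deletion (1373 CPM), whereas that with the highest Itgam was hs3b-hs4 deletion (marker sum 615.4 CPM), and the part of these cells in the Itgam values was not tested.

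The proteins that work with the 6 gene products were followed in a list of 26 partner genes, of which 25 were tested. Of these 6 rose, 15 fell and 4 were not called in stimulated cells, where 35.7% of all genes were called higher and 34.1% lower, with a median log2 fold change of -0.53 against 0.01 over all genes. Of the linkers between CD43 and the actin skeleton, Ezr (ezrin, log2 -1.10) and Msn (moesin, -0.27) fell and Rdx (radixin, 0.55) rose. Of the enzymes that build the mucin-type glycans CD43 carries, C1galt1 (core 1 synthase) rose by 0.67, whereas Gcnt1 (core 2 branching, -1.38) and St3gal1 (sialylation, -0.84) fell. C1galt1c1, its chaperone, had a log2 fold change of 0.02 (adjusted p = 0.881 by edgeR). Cd86, which encodes a CTLA-4 ligand, fell by 1.62 on the log2 scale and stood at 25.2 to 44.2 CPM in stimulated cells, against 87.3 to 101.6 CPM in resting cells. Cd80, the other ligand, stood at 5.19 to 9.35 CPM in stimulated and 4.40 to 10.0 CPM in resting cells and was not called (0.06, adjusted p = 0.85). Ap2m1, a clathrin adaptor that takes CTLA-4 into the cell, rose (1.00), and Lrba, which protects CTLA-4 from degradation, fell (-0.50). Itgb2, the beta chain that pairs with CD11b, fell (-0.70), as did the sister chains Itgax (CD11c, -5.68) and Itgad (CD11d, -7.45), while Itgal (CD11a) rose (0.55). Itgad had 1 to 13 counts in stimulated libraries, against 246 to 2339 in resting ones, and passed the filter through the resting libraries. Itgax had 16 to 58 counts against 666 to 2693, and is also on the list of dendritic cell markers, of which 7 of 8 fell. The part of myeloid and dendritic cells in these values was not tested. Of the proteins that activate these integrins, Tln1 (talin, -0.71) fell and Fermt3 (kindlin-3, 0.44) rose, and Icam1, a ligand of CD11b, was not called (-0.055, adjusted p = 0.761). Cebpb, a myeloid transcription factor, fell (-2.94), as did Rxra (-2.08), a nuclear receptor. Of the signalling partners listed for CD5, Ptpn6, a phosphatase, fell (-0.53), Cd72 fell (-0.83), Csnk2b, a casein kinase subunit, rose (1.17), and Cd6 was too low to test. In the 3 deletions 0 of the 25 genes were called by edgeR, at background rates given below.

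Of 22 other genes linked to B-1 cells 20 were tested, and 7 rose, 12 fell and 1 was not called in stimulated cells, where 35.7% of all genes were called higher and 34.1% lower, with a median log2 fold change of -0.80 and a mean of -0.48, against a median of 0.01 over all genes tested. The largest rise was that of Igf2bp3 (2.15), which was uneven, with 10 to 147 counts per stimulated library against 2 to 51 per resting library. Other rises included Plscr1 (phospholipid scramblase, 2.01), Cd36 (a scavenger receptor, 1.90), Arid3a (a DNA-binding factor of B cells, 1.85), Tnfrsf13b (the receptor TACI, 1.61) and Fcrl5 (an Fc receptor-like protein, 1.49). The falls included Bhlhe40 (the close relative of Bhlhe41, -3.10), Ahr (the aryl hydrocarbon receptor, -3.06), Apoe (-2.76), Tbc1d9 (-2.38) and Pdcd1lg2 (PD-L2, a surface marker of B-1 cells, -2.35). Resting Apoe was highest with the 3'RR deletion (257.6 CPM), as was the macrophage marker sum (1373 CPM). The order of the other resting libraries differed. The part of macrophages in the Apoe value was not tested. Bhlhe40 stood at 22.5 to 32.1 CPM in stimulated cells, against 217.3 to 298.8 CPM in resting cells, a wider gap than that of Bhlhe41. Il5ra, the receptor chain for interleukin 5, which sustains B-1 cells, stood at 2.67 to 16.9 CPM in stimulated and 3.87 to 12.0 CPM in resting cells and was not called (-0.04). Genes of the other B cell subsets mostly fell. Of 13 follicular genes 0 rose and 12 fell (median log2 -2.21), and of 11 marginal zone genes 2 rose and 9 fell (median -2.14). Of 6 plasma cell markers 3 rose, namely Prdm1 (log2 2.72), Xbp1 (2.32) and Sdc1 (0.96), and 0 fell.

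**Figure D2:**
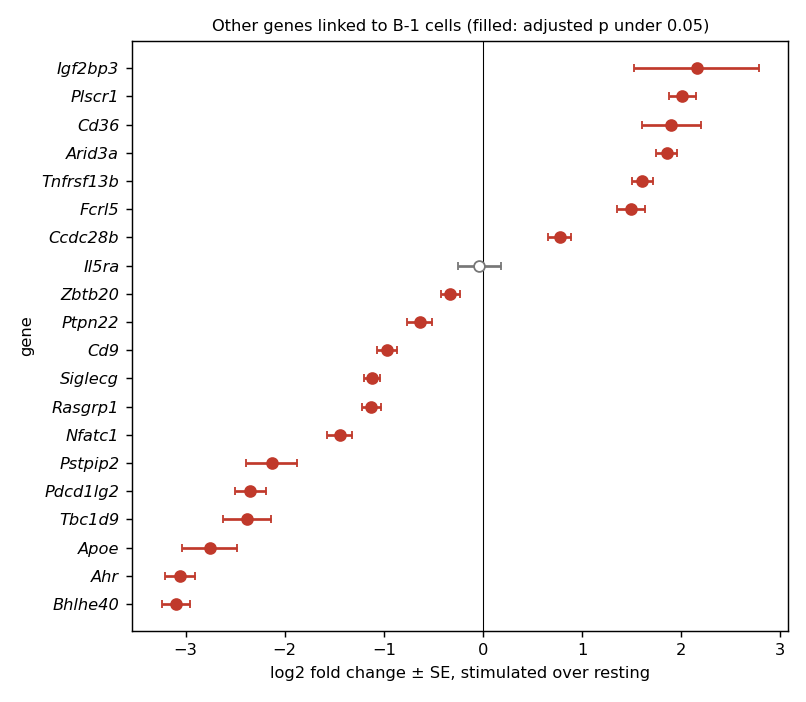
Log2 fold change of stimulated over resting cells with its standard error for the 20 tested genes linked to B-1 cells other than the 6 genes of this report. Filled points passed an adjusted p of 0.05; 7 lie to the right of 0, 12 to the left, and Il5ra is open at -0.04.

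The second comparison asked how each deletion differed from wild-type cells, over both states in the same edgeR fit. The 3 deletions share the wild-type libraries, so their values are not independent. Ctla4 was the one gene of the 6 that was called, in 3'RR deletion and 3'PAL deletion cells. The background was low: in 3'RR deletion cells 1.97% of genes were called (0.922% higher, 1.04% lower), in hs3b-hs4 deletion cells 0.142% (0.0746% higher, 0.0678% lower) and in 3'PAL deletion cells 0.536% (0.346% higher, 0.19% lower). With an unadjusted p under 0.05 these were 13.6%, 8.84% and 9.36%.

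Ctla4 was higher in 3'RR deletion cells by 2.05 ± 0.32 (log2, SE, adjusted p = 0.024 by edgeR) and in 3'PAL deletion cells by 2.23 ± 0.32 (adjusted p = 0.0376). In hs3b-hs4 deletion cells the value was 1.18 ± 0.32 and was not called (adjusted p = 0.328). The difference between the deletions was not tested. All 6 deletion libraries lay above the wild-type library of their state, as for 10.6% of all genes (26.9% in stimulated cells, 32.8% in resting cells). The ratio to wild-type in stimulated cells was 3.97 (95% interval 3.43 to 4.60) for the 3'RR deletion, 1.57 (1.32 to 1.87) for hs3b-hs4 and 5.11 (4.44 to 5.91) for 3'PAL. In resting cells it was 4.60 (3.21 to 6.76), 3.37 (2.33 to 5.02) and 4.31 (3.00 to 6.38) in the same deletions, against only 35 wild-type counts. These intervals cover counting error only, since each library stands alone and PCR copies are not independent molecules. The call was kept in 7 of 12 alternatives for the 3'RR deletion and in 5 of 12 for 3'PAL, and was lost when any one library of the genotypes compared was left out. Without the wild-type resting library, the one that stood apart, the values were 1.93 in 3'RR deletion (adjusted p = 0.13) and 2.11 in 3'PAL deletion cells (adjusted p = 0.257), still in the same direction.

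**Figure D3:**
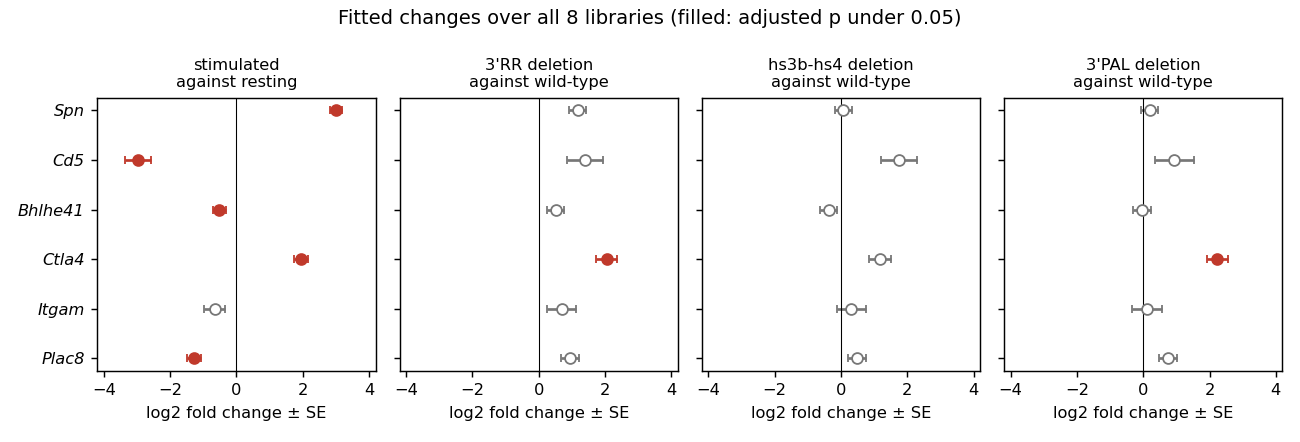
Log2 fold changes with standard errors from the fit over all 8 libraries for the 6 genes, for stimulated over resting cells and for each deletion over wild-type. Filled points passed an adjusted p of 0.05; among the deletions these are Ctla4 in 3'RR deletion (2.05) and 3'PAL deletion cells (2.23).

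Spn was not called in any deletion. Its fold change in 3'RR deletion cells was 1.17 ± 0.25 (log2, SE, adjusted p = 0.0768 by edgeR), with ratios of 2.86 (2.68 to 3.05) in stimulated and 1.73 (1.45 to 2.08) in resting cells, each against 1 wild-type library. By DESeq2 this value was 1.13 and passed the threshold (adjusted p = 0.00427), as it did with no filter on low counts (1.17, adjusted p = 0.00677). In hs3b-hs4 deletion cells the value was 0.07 (adjusted p = 0.978) and in 3'PAL deletion cells 0.20 (adjusted p = 0.845). In 3'PAL deletion cells the ratio was 1.66 (1.55 to 1.78) in stimulated cells and 0.716 (0.572 to 0.895) in resting cells, on opposite sides of 1.

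Plac8 was above wild-type in all 6 deletion libraries, as were 10.6% of all genes, but was called in none of the deletions. The log2 values were 0.95 ± 0.28 in 3'RR deletion (adjusted p = 0.187), 0.49 ± 0.28 in hs3b-hs4 deletion (adjusted p = 0.708) and 0.75 ± 0.28 in 3'PAL deletion cells (SE, adjusted p = 0.46, edgeR). In stimulated cells the ratio to wild-type was 3.07 (2.89 to 3.26), 1.71 (1.60 to 1.83) and 2.14 (2.00 to 2.28) in the order of these deletions. In resting cells it was 1.19 (1.15 to 1.24), 1.20 (1.15 to 1.25) and 1.39 (1.33 to 1.44). The excess over wild-type was larger in stimulated cells in each deletion, a difference that 1 library per genotype and state does not allow to be tested.

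Cd5 likewise was above wild-type in all 6 deletion libraries, as were 10.6% of all genes, and was called in none. Its log2 values were 1.396 (adjusted p = 0.326), 1.75 (0.382) and 0.94 (0.689, edgeR) in 3'RR, hs3b-hs4 and 3'PAL deletion cells. In resting cells its ratio to wild-type was 2.44 (1.405 to 4.45), 2.83 (1.64 to 5.16) and 1.26 (0.663 to 2.47). The stimulated libraries, with 1 wild-type count, gave ratios too uncertain to use, as for hs3b-hs4 deletion cells (8.92, interval 1.20 to 395.9).

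Bhlhe41 and Itgam were called in no deletion, and their ratios to wild-type were uneven. Bhlhe41 in stimulated cells was 2.05 times wild-type (1.81 to 2.32) in 3'RR deletion cells, and 1.11 (0.957 to 1.28) and 1.08 (0.935 to 1.24) times in hs3b-hs4 and 3'PAL deletion cells. In resting cells it was 0.548 times wild-type (0.481 to 0.623) in hs3b-hs4 deletion cells and 1.01 (0.904 to 1.12) times in 3'RR deletion cells. Itgam in hs3b-hs4 deletion cells was 0.677 times wild-type (0.546 to 0.837) when stimulated and 1.80 times (1.55 to 2.10) when resting. In 3'RR deletion cells Itgam was 2.00 times wild-type (1.70 to 2.35) when stimulated and 1.24 times (1.06 to 1.46) when resting.

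Counted over the 6 genes, the 3'RR deletion library was at least 2-fold above wild-type for 5 genes in stimulated cells, where 4.53% of all genes were. Itgam, at 1.996 times, was just under. The hs3b-hs4 deletion library was so for 1 gene, Cd5 (2.71% of all genes), and the 3'PAL deletion library for 3 genes (5.68%). In resting cells the counts were 2 (8.24%), 2 (5.6%) and 1 (4.61%) in the same deletions, and 0 of the 6 genes were 2-fold lower in any deletion library. Of all genes 3.38%, 2.44% and 2.08% were so in stimulated cells of the 3 deletions and 3.91%, 4.37% and 4.54% in resting cells. Cd5 is among the stimulated genes counted, from the few reads given above. In the fit over both states 8 of 16 monocyte and macrophage markers and 7 of 9 erythroid markers rose in 3'RR deletion cells, 0 and 1 in hs3b-hs4 deletion cells, and 0 and 7 in 3'PAL deletion cells. Of all genes 0.922%, 0.0746% and 0.346% were called higher in these deletions. Of the called macrophage markers Csf1r had 0 to 14, Vcam1 0 to 3 and C1qc 0 counts in stimulated libraries. Such values rest mainly on the resting libraries, 1 per genotype, and cannot show the same change in both states. In stimulated cells plasma cell markers summed to 1763 CPM with the 3'RR deletion, 995.8 with hs3b-hs4, 1178 with 3'PAL and 589.1 in wild-type, the same order as for Spn and Plac8. Of the 6 plasma cell markers 0 were called in any deletion, and Igj (the J chain) alone held 1037 CPM of the 3'RR deletion sum. Their sum in resting cells was 530.3, 1030, 731.0 and 245.0 CPM. The part of these cell types in the values of the 6 genes was not tested. Of the 20 other B-1 genes 1 rose in 3'RR deletion cells, namely Il5ra (log2 1.81, adjusted p = 0.0351 by edgeR), and 0 were called in the other deletions.

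**Figure D4:**
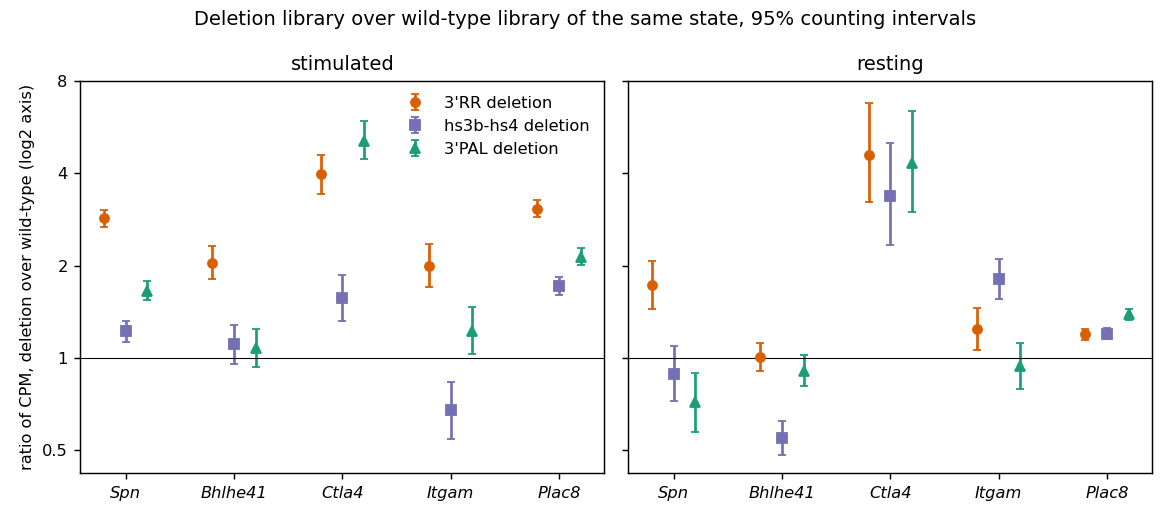
Ratio of CPM in a deletion library over the wild-type library of the same state, on a log2 axis, with 95% counting intervals, for stimulated (left) and resting (right) cells; Cd5 is left out for its few counts. Ctla4 lies above 1 in all 6 comparisons, and Itgam of hs3b-hs4 deletion cells lies below 1 when stimulated (0.677) and above 1 when resting (1.80).

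**Figure D5:**
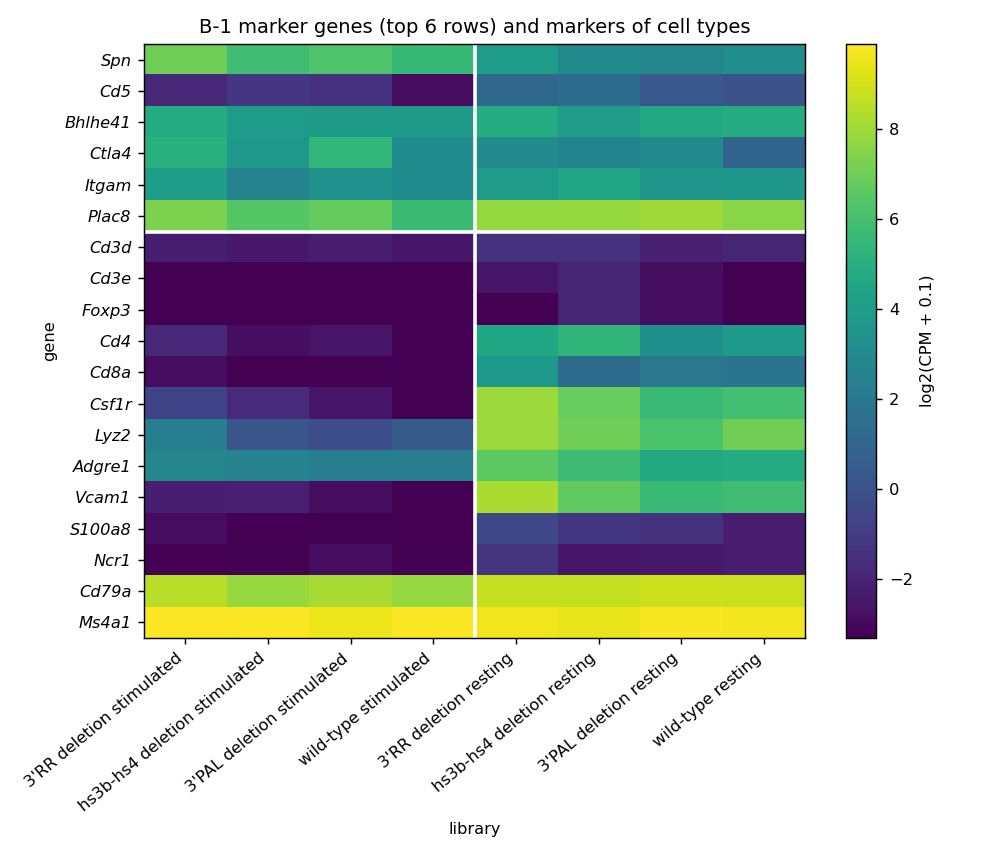
Log2(CPM + 0.1) in the 8 libraries, stimulated left of resting, for the 6 genes (top) and for markers of T cells, macrophages, neutrophils, NK cells and B cells. Cd3e and Foxp3 are at 0 counts in the stimulated libraries, and Csf1r has 0 to 14 counts there, against 1186 to 7221 in resting libraries, while Cd79a and Ms4a1 are high in all 8.

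The genes whose levels over the 8 libraries were most like each of the 6 were found by Pearson correlation of log2 CPM among about 8527 genes of at least moderate level. They are a description, with no test, over points that share 2 states and 4 genotypes. For Spn these were Keap1 (r = 0.994), Ubl4 (0.991) and Acbd4 (0.988), and for Plac8 Eif3f (0.988), Fam214a (0.988) and Gabarap (0.987). For Cd5 they were Syne2 (0.989), Kif13b (0.989) and Ffar2 (0.988). For Ctla4 they were an immunoglobulin kappa V segment (0.983), Ubald2 (0.970) and Edem2 (0.967). The likeness was lower for Bhlhe41, with Tnfrsf26 (0.946), Zbed6 (0.929) and Slc10a7 (0.924), and for Itgam, with Herpud1 (0.911), Ptpn18 (0.907) and BC028528 (0.905). Among the 6 genes themselves, after the mean of each state was taken off, the correlation over the 8 libraries was highest for Ctla4 with Plac8 (0.77) and for Spn with Bhlhe41 (0.69), and lowest for Cd5 with Bhlhe41 (-0.16).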

How the data were processed

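RNA of 8 libraries of splenic B cells was analysed. The deposited gene counts were made by the authors with STAR 2.4.0a and featureCounts (Subread 1.4.6-p1) on GRCm38 (mm10), and the deposited estimated counts and TPM per transcript with kallisto 0.42.3, per the submitters' processing notes, which also list SAMtools and bedtools. Libraries were rRNA-depleted and stranded, per the labels' protocols. Neither strand setting nor annotation version is stated there, so overlapping genes may share counts. An unnamed entry (0.0062 to 0.0342% of counts) was left out, with 93 spike-in entries.

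Counts were scaled by TMM (factors 0.925 to 1.09) and genes kept by filterByExpr (14744) with edgeR 4.0.16 in R 4.3.3. State and genotype were terms of 1 fit (3 degrees of freedom left, common biological coefficient of variation 16.0%), assuming the same change of a mutant in both states, and the genotypes serve as replicates of a state. P-values were adjusted by Benjamini-Hochberg at 0.05. Libraries of a mutant and wild-type in the same state were compared by a ratio of CPM with an exact conditional binomial 95% interval and no test, and 2-fold counts used CPM + 0.1. Depth was 17883683 to 28785192 counts per library. TPM per gene is the sum over its transcripts, and some headers of the TPM table had shifted, so columns were matched by content. The code was checked on simulated counts.

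The 6 genes and all lists were chosen with earlier results of these data known. Named were the 6 genes, the 3 most correlated genes of each (mean log2 CPM of at least 3), any gene of the B-1 and partner lists, up to 6 per other list and defining markers. Lists covered B cell subsets, B cell identity, plasma, T, NK, dendritic and erythroid cells, macrophages and neutrophils. A gene of the B cell identity list is left out and not reported here. Cd2, Lck, Ly6c2 and Igj were named after their values were seen. The 8 dendritic cell markers gave 1 rise and 7 falls in stimulated cells, the 3 tested NK cell markers 3 falls and the 2 tested neutrophil markers 2 falls. Of all genes 35.7% were called higher and 34.1% lower there. Whether resting and stimulated pools shared animals is not stated. Alternatives were library size alone, DESeq2 1.42.0, no filter, kallisto counts, no genotype term and leaving out libraries. Promoter windows were searched on both strands.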

Additional observations from a re-analysis of the deposited data

Results flagged for a closer look

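Bhlhe41 in 3'RR deletion stimulated cells, at 28.0 CPM, lay far above the other stimulated libraries, at 15.1, 14.7 and 13.7 CPM. About 1 in 20 groups is marked by chance, and 12 groups of 4 libraries were looked at.

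Spn was 1.66 times wild-type in stimulated and 0.716 times in resting 3'PAL deletion cells. For Itgam in hs3b-hs4 deletion cells the ratio to wild-type was 0.677 when stimulated and 1.80 when resting. Each pair lies on opposite sides of 1 by more than counting error, and the difference between the states was not tested, since each value comes from 1 library.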

How the results depend on the processing

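The changes of Spn, Cd5, Ctla4 and Plac8 in stimulated cells stayed called in 17 of 17 alternatives. The fit pairs the states within a genotype, and the labels give no replicate numbers beyond this; with no genotype term 2 of the 6 genes rose and 2 fell, against 2 and 3.

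The number of genes called in 3'RR deletion cells was 529 by DESeq2 and 657 with no filter, against 290, and 76 to 366 when libraries were left out. In hs3b-hs4 deletion cells it was 185, 189 and 1 to 47, against 21, and in 3'PAL deletion cells 257, 313 and 3 to 111, against 79. With library size alone 33.78% of those called in 3'RR deletion cells were higher, against 46.9%.

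Bhlhe41 in stimulated cells was -0.42 with kallisto counts (adjusted p = 0.0748), -0.49 with no genotype term (0.14) and -0.71 to -0.32 with libraries left out. Itgam was -0.74 by DESeq2 (0.0363), -0.66 with no filter (0.0449) and -0.97 to -0.24 with libraries left out; it was called without either 3'RR deletion library (0.0458 and 0.0417). Ctla4 in 3'RR deletion cells was 1.93 to 2.22 with libraries left out, and lost its call without any of the 4 libraries compared (adjusted p 0.103 to 0.134). In 3'PAL deletion cells it was 2.19 with library size alone (0.0742) and 1.80 to 2.46 with libraries left out, also lost without either 3'RR deletion library (0.0641 and 0.0748). Spn in 3'RR deletion cells was 1.13 by DESeq2, 1.17 with no filter and 0.71 to 1.55 with libraries left out, and called without either 3'PAL deletion library (0.0362 and 0.0305). Plac8 there was 0.95 with no filter, and called (0.0425).

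Uncalled values turned round: Spn in hs3b-hs4 deletion cells (-0.39 to 0.44, with -0.03 without the deletion's resting library) and in 3'PAL deletion cells (-0.30 to 0.56, with -0.25 without its stimulated library), Bhlhe41 in hs3b-hs4 (-0.78 to 0.0235) and 3'PAL deletion cells (-0.44 to 0.39, with 0.18, and 0.0048 with kallisto counts), Itgam in hs3b-hs4 (-0.75 to 1.02) and 3'PAL deletion cells (-0.19 to 0.35). The cause was not tested. Depth limits Cd5 most, with at most 8 counts in stimulated libraries.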
